A study of Mus musculus with 7 samples.

Results

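Igtp, Irgm2, Iigp1, Gbp2, Slfn2, Sp100 and Sp140 are 7 mouse genes of 3 kinds that interferons switch on: GTPases, a Schlafen gene and a pair of nuclear body genes. They were taken by symbol from the authors' deposited table, in which each has 1 row among 769 listed gene models, out of 11778 that the authors' adjustment covered. RNA was measured by sequencing in sorted bone marrow cells with the phenotype Lin-cKit+Sca1-CD150+CD41+, which the labels call megakaryocyte progenitors, the cells that give rise to megakaryocytes and platelets. All mice were offspring of Flt3-cre and mTmG parents, so a cell's red (Tomato) or green (GFP) colour records whether it or an ancestor expressed the Flt3-driven recombinase, and Tom+ or GFP+ fractions were sorted. The young group has 3 libraries from mice aged 3 months, all of strain C57BL/6. The old group has 4 libraries from mice aged 18 to 20 months (20 in the growth protocol), 1 of them labelled C57BL/7 and the others C57BL/6.

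The 3 young titles share the prefix mkpgy, while 2 old titles carry mkpgo and the other 2 mkpto. All young titles thus have the letter g, and the old group mixes g and t. No old mean was given by prefix, so age and whatever g or t marks cannot be told apart in these values. What the prefixes mean was not given in the sources used here. In the authors' deposited table the old mean is headed mkpxo, which is neither old prefix. It was read here as the mean of all 4 old libraries, and every old mean, fold change and p-value below depends on that reading. Since the deposited values are group means with no value per library, no library can be shown apart from its group and the depth of each library is unknown. Nothing in the labels says that libraries came from separate mice, and the p-values then measure only the spread between libraries. The deposited table also holds a mean over 14 samples, more than the 2 groups have. Whether the authors' SEs and p-values also drew on samples outside the 2 groups was not given in the sources used here. In bulk samples, fewer cells of a type and less RNA per cell cannot be told apart.

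Interferons are cytokines released during infection and inflammation. Their receptors activate transcription factors, which bind the interferon-stimulated response element (ISRE) and the gamma-activated site (GAS) near the start of target genes. Immunity-related GTPases (IRG) and guanylate-binding proteins (GBP) are large GTPases that gather on the vacuoles of intracellular pathogens, and members of the IRGM branch also hold the other IRG proteins inactive on the cell's own membranes. Slfn2 belongs to the Schlafen genes and is known for keeping T cells quiescent. Sp100 encodes a core protein of PML nuclear bodies, and Sp140 a related chromatin reader of immune cells. In blood formation, interferon is known to push quiescent stem cells into division.

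The letters before the start sites are shown first because matches to interferon motifs were found in some of these genes and not in others. RefSeq promoters (GRCm38.p6) were matched for 6 of the 7 genes, all but Iigp1. Each run is given 5′ to 3′ on the plus strand, which is the strand of all 6 genes. It ends at the base before the start in the RefSeq promoter table, except for Gbp2, where only 30 bases around its match are shown. Capitals mark matches to the ISRE core, which is GAAA, any 2 bases and GAAA again, or to the GAS core, which is TTC, any 3 bases and GAA, on either strand. The GAS core reads the same on both strands, and no match to one core overlapped a match to the other.
Igtp, chr11:58199456-58199555: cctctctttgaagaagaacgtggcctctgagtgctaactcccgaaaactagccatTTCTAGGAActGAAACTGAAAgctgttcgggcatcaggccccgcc
Irgm2, chr11:58214877-58214976: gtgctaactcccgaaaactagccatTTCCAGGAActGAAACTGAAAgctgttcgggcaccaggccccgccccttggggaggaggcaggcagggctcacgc
Gbp2, chr3:142620594-142620623: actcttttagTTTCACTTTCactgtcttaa
Slfn2, chr11:83065012-83065111: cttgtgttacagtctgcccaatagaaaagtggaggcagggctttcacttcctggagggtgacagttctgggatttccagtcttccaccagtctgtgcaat
Sp100, chr1:85649888-85649987: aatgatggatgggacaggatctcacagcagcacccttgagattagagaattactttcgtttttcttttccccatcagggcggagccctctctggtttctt
Sp140, chr1:85600603-85600702: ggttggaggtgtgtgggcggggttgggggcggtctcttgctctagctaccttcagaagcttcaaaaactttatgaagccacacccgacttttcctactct

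In the 250 bases before the start, all 3 GTPase promoters held the ISRE core, and those of Slfn2, Sp100 (both of its starts) and Sp140 held neither core. With 1 mismatch allowed, Slfn2 and Sp100 matched the ISRE core too, as did 34.7% of all genes. The ISRE core lay 34 to 25 bases before the RefSeq start of Igtp, 64 to 55 bases before that of Irgm2 and, on the minus strand, 59 to 50 bases before that of Gbp2. GENCODE starts Gbp2 at 142620602, so this match, at 142620604 to 142620613, lies in its first exon there. For Sp140, GENCODE gives a start at 85600378, and the searched window, which ends at 85600702, lies wholly downstream of it. No base before the GENCODE start of Sp140 was searched. Igtp and Irgm2 also held a GAS core just upstream of it, 45 to 37 and 75 to 67 bases before their starts. Their promoters are near copies: 194 of 215 aligned bases (90.2%) were identical, so their matches are not independent. Of the 27025 genes in the RefSeq promoter table, 3.46% held the ISRE core in this window and 8.13% the GAS core. Among genes called higher in old, 15 of the 208 with a promoter held the ISRE core (7.21%), and among those called lower 1 of 142 did (0.704%). The 15 include Igtp, Irgm2 and Gbp2 themselves, which were chosen with their calls known. The GAS core was found in 9.13% of the higher and 8.45% of the lower genes. A match is a run of letters, and no binding was measured here.

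**Figure D1:**
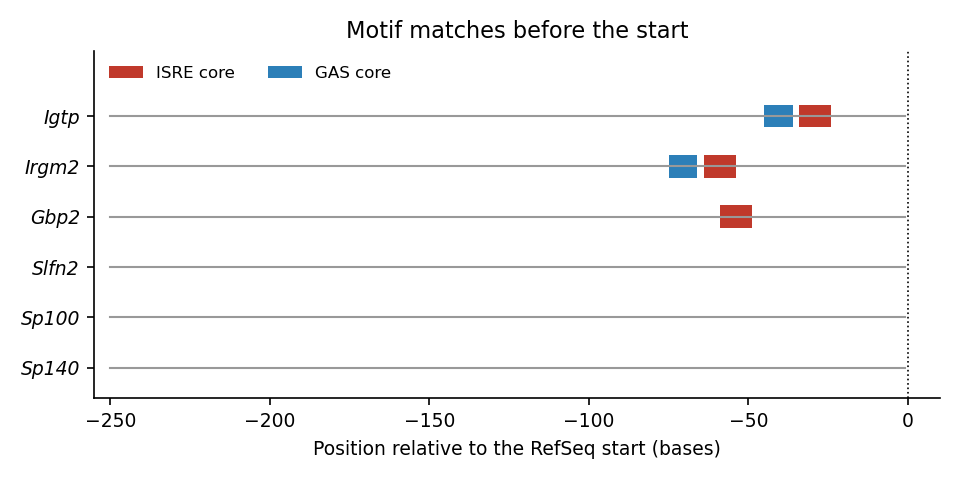
Positions of ISRE core (red) and GAS core (blue) matches in the 250 bases before the RefSeq start of 6 of the genes, with the x axis in bases and the start at 0. Matches without a mismatch appear only in the 3 GTPase rows, all within 75 bases of the start, and the Slfn2, Sp100 and Sp140 rows are empty.

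All 7 genes were higher in old by the authors' DESeq test, at an adjusted p under 0.05. Over all gene models in the adjustment, 4.13% were called in either direction and 2.56% were called higher. The genes were chosen with these results known, so their count of 7 is a description and not support. At a limit of 0.01 there were 6 of the 7, against 1.18% of all gene models called higher, and at 0.1 all 7, against 3.67%. With a log2 change of 1 or more asked for as well there were 5, against 2.29%, and under Bonferroni adjustment only Slfn2, against 0.509%. Of all gene models, 1.57% were called lower. The log2 fold changes of the 7 genes (old over young) in the authors' deposited table ran from 0.73 for Sp100 to 3.02 for Slfn2, with a median of 1.46. The median over the 302 gene models called higher was 2.37 in that table. A log2 fold change is given below with the authors' standard error (SE), and a fold with a normal 95% interval computed from that SE.

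Igtp, an IRGM-branch GTPase also named Irgm3, had the highest level of the GTPases per length of transcript. Its mean was 258 normalized counts in young and 707 in old in the authors' deposited table. The 2.75-fold rise (95% interval 1.72 to 4.39) corresponds to a log2 fold change of 1.46 (SE 0.34, DESeq adjusted p = 0.00265) in the authors' deposited table. Igtp lies on chromosome 11 from 58199556 to 58207591 on the plus strand (GENCODE M21, GRCm38).

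Irgm2, its neighbour and another IRGM-branch regulator, stood at a mean of 38.2 in young and 129.8 in old in the authors' deposited table. Its rise was 3.44-fold (1.69 to 6.98), with a log2 fold change of 1.78, an SE of 0.52 and the weakest of the 7 adjusted p-values (DESeq, 0.0244), as the authors' deposited table gives them. The RefSeq start of Irgm2 is 15421 bases downstream of that of Igtp on the same strand. In GENCODE, Irgm2 (chromosome 11, 58199618 to 58222782) also has a transcript that begins in the first exon of Igtp, and 162 exonic bases belong to both genes. Of the distinct 50-base stretches in Igtp transcripts, 243 of 2064 (11.8%) also occur in Irgm2 transcripts, so reads there could count for either gene. The difference between their log2 fold changes was 0.32 (95% interval -0.90 to 1.55), which does not separate them and does not show that they changed alike.

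Iigp1, also named Irga6, is an IRG effector that coats pathogen vacuoles, and per length its level was the lowest of the 7 in both groups. The authors' deposited table gives it a mean of 7.74 in young and 38.3 in old. It rose 4.93-fold (2.23 to 10.9), with a log2 fold change of 2.30, the widest SE of the 7 (0.58) and an adjusted p of 0.00647 by DESeq in the authors' deposited table. The gene lies on chromosome 18, and 1.69% of its 50-base stretches occur in another gene's transcripts.

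Gbp2, the guanylate-binding protein, changed least among the GTPases. Its mean went from 63.7 to 127 in the authors' deposited table, a 1.99-fold rise (1.41 to 2.81). The log2 fold change was 0.99 (SE 0.26, DESeq adjusted p = 0.00773) in the authors' deposited table. Gbp2 spans bases 142620602 to 142638008 of chromosome 3, on the plus strand, and shares 2.03% of its 50-base stretches with its neighbour Gbp2b.

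Slfn2 had the steepest rise. Its mean was 20.1 in young and 163 in old in the authors' deposited table. That is an 8.12-fold rise (4.42 to 14.9), or 3.02 on the log2 scale with an SE of 0.45 (DESeq adjusted p = 2.09e-08) in the authors' deposited table. Only 7 of the 769 listed gene models had a smaller p. Its change was not the largest in the table, since 103 of the 302 higher calls had a larger log2 fold change, but 210 of them had a larger SE. Slfn2 occupies chromosome 11 from 83065112 to 83070678 on the plus strand, and 4.27% of its 50-base stretches also occur in Slfn4. The next gene in the annotation, Gm20234, is of antisense type. No other gene than Slfn4 shared a 50-base stretch of transcript with Slfn2 on either strand. The strand setting of the counts was not given in the sources used here.

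Sp100 and Sp140, the nuclear body pair, both rose, Sp100 by the smallest fold of the 7 genes. Sp100 had a mean of 394 in young and 652 in old in the authors' deposited table. It rose 1.66-fold (1.28 to 2.15), with a log2 fold change of 0.73, the smallest SE of the group (0.19) and an adjusted p of 0.00903 by DESeq in the authors' deposited table. Sp140 went from a mean of 96.7 to 216, a 2.24-fold rise (1.50 to 3.35), in the authors' deposited table. Its log2 fold change was 1.16 (SE 0.30, DESeq adjusted p = 0.00665) in the authors' deposited table. These neighbours follow each other on the plus strand of chromosome 1, Sp140 from 85600378 to 85645037 and Sp100 from 85649988 to 85709998, 4950 bases apart. Their log2 fold changes differed by 0.44 (95% interval -0.25 to 1.13), an interval that includes 0.

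Sp140 shares more of its sequence with other genes than the other 6 do. Of its distinct 50-base stretches, 57.3% occur, on either strand, in transcripts of 14 other annotated genes, and 20.6% occur in the antisense gene Gm17017 alone. The share was 5.92% for Sp100 and 7.83% for Irgm2. No exonic base belongs to both Sp100 and Sp140.

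**Figure D2:**
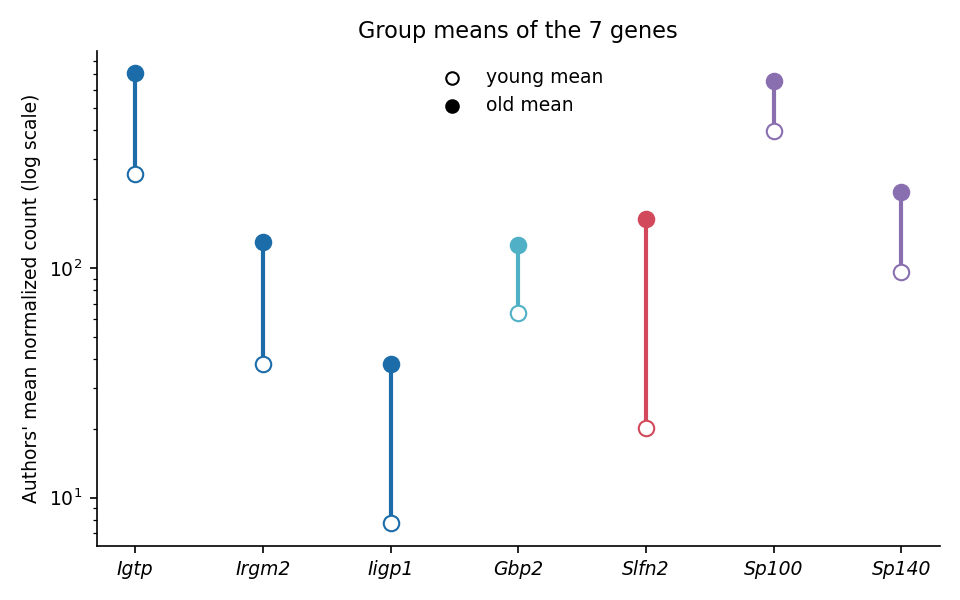
Authors' mean normalized count (y axis, log scale) of each gene in young (open circles) and old (filled circles), coloured by family. Every old mean lies above its young mean, from 7.74 against 38.3 for Iigp1 to 394 against 652 for Sp100, and the Slfn2 line is the longest.

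Set side by side, the 4 GTPases lay between Slfn2 and the SP100 pair in size of change, with overlap on the low side. GTPase log2 fold changes ran from 0.99 to 2.30 (median 1.62) in the authors' deposited table, against 3.02 for Slfn2 and 0.73 and 1.16 for Sp100 and Sp140. Gbp2 lay between Sp100 and Sp140 and below the 3 IRG genes (1.46 to 2.30), though its difference from Igtp, 0.47, had a 95% interval of -0.37 to 1.31. The differences between genes were given an SE combined from the authors' SEs as if errors were independent. Genes measured in the same libraries may not have independent errors, so these intervals are approximate, and they are not adjusted for the 21 pairs.

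The interval excluded 0 in 6 of the 21 pairs, 4 of which involve Slfn2. The Slfn2 change exceeded that of Igtp by 1.56 on the log2 scale (0.46 to 2.67), that of Gbp2 by 2.03 (1.02 to 3.04), that of Sp140 by 1.86 (0.80 to 2.91) and that of Sp100 by 2.29 (1.34 to 3.25). It did not separate from that of Irgm2 (1.24, -0.11 to 2.59) or Iigp1 (0.72, -0.72 to 2.16). The other pairs whose interval excluded 0 were Iigp1 against Gbp2 (1.31, 0.06 to 2.56) and Iigp1 against Sp100 (1.57, 0.37 to 2.78).

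**Figure D3:**
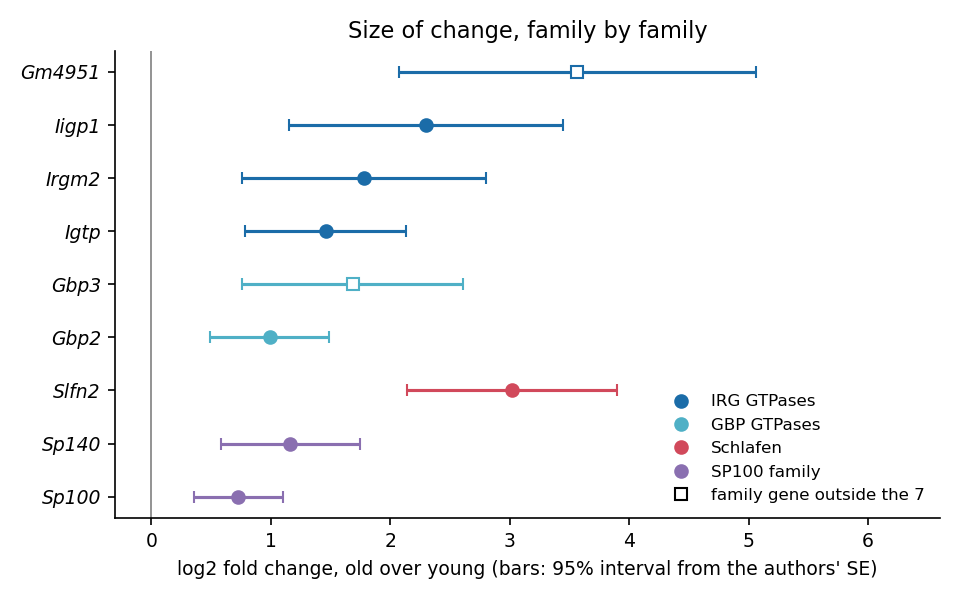
Log2 fold change of old over young (x axis) with 95% intervals from the authors' SE, for the 7 genes (filled circles) and the family genes Gm4951 and Gbp3 (open squares). Sp100 has the narrowest interval, and the interval of Slfn2 starts at 2.14, above the upper ends for Igtp (2.13), Gbp2, Sp140 and Sp100.

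Per length, the order of the genes changed between young and old. Levels were divided by the longest protein-coding GENCODE transcript, since the length of the authors' gene models was not given in the sources used here. In young, the level in normalized counts per kilobase was 146 for Sp100, 127 for Igtp, 40.0 for Sp140, 25.3 for Gbp2, 12.1 for Slfn2, 10.8 for Irgm2 and 2.48 for Iigp1, from the means of the authors' deposited table. In old, Igtp led at 350 per kilobase and Sp100 followed at 241. Slfn2 moved from the fifth to the third place (98.1), ahead of Sp140 (89.3), Gbp2 (50.4), Irgm2 (36.8) and Iigp1 (12.3). Since the means carry no spread, neighbours in this order cannot be tested. With all exons merged, the level of Sp100 was 52.2 in young and 86.3 in old, and it then stood behind Igtp in both groups and behind Slfn2 in old.

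**Figure D4:**
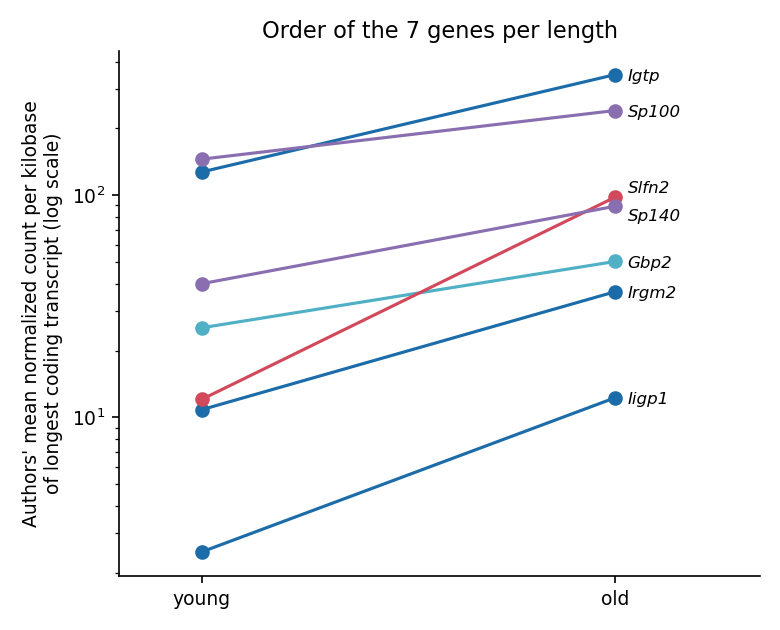
Authors' mean normalized count per kilobase of the longest coding transcript (y axis, log scale) in young and old, 1 line per gene. The Slfn2 line crosses those of Gbp2 and Sp140, and the Igtp line crosses that of Sp100, which it does not with all exons merged.

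Another 3 genes of these families were called, all higher in old. Of 41 annotated genes in the IRG, GBP, Schlafen and SP100 families, 10 were listed and all 10 were called higher, 7 of them the genes described above, which were chosen with their calls known. Without those 7 it was 3 of 34 (8.82%), against 2.56% of all gene models called higher, and how many of the 34 entered the adjustment is not known. Gm4951, an IRG gene near Iigp1 on chromosome 18, went from a mean of 3.70 to 41.8, a log2 fold change of 3.57 (SE 0.76, DESeq adjusted p = 0.000499) in the authors' deposited table. Gbp3, near Gbp2 on chromosome 3, has a young mean of 14.8 and an old mean of 47.0 in the authors' deposited table, with a log2 fold change of 1.69 (SE 0.47). Of its 2 RefSeq promoters, 1 held the ISRE core, in 2 overlapping matches. Slfn4 is listed at 0 in young and at 4.79 in old in the authors' deposited table, so no fold is given. The other 31 annotated family genes, Irgm1 and Sp110 among them, have no value here, as the table ends at an adjusted p of 0.0993.

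Among the 5 annotated genes on either side of each of the 7 genes, the only ones listed in the authors' deposited table were Igtp and Irgm2 beside each other, Sp100 and Sp140 beside each other, and Gbp3 beside Gbp2. For Slfn2 and Iigp1, no gene that close was listed.

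In the wider interferon pathway, outside these families, 6 genes were called, all higher in old. Among 33 genes for interferons, their receptors and signalling, only Batf2 was called. That is 3.03%, near the 2.56% of all gene models called higher. Batf2, an AP-1 family factor induced by interferon, rose from a mean of 12.6 to 39.6 (log2 fold change 1.68, SE 0.47) in the authors' deposited table. The transcription factor Irf1 (102 and 206, DESeq adjusted p = 0.0525) was listed in the authors' deposited table without passing. No interferon gene or receptor was listed. From a list of 82 other annotated genes induced by interferon, which also holds Sp110, 5 were called (6.10%). How many genes of either list entered the adjustment is not known.

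Uba7, the activating enzyme for the ubiquitin-like modifier ISG15, had 2 called gene models, which the authors' deposited table gives at 622 in young and 2545 in old for one and at 78.5 and 252 for the other. The first had a log2 fold change of 2.03 (SE 0.47) in the authors' deposited table. Ly6a, the gene for Sca1, a marker the sort selected against, rose by 2.08 (SE 0.67), and the antiviral synthetase Oas3 by 1.64 (SE 0.52), in the authors' deposited table. Ifi203 rose by 1.01 (SE 0.32), and the receptor transporter gene Rtp4 by 0.95 (SE 0.30), in the authors' deposited table. Over all 6 interferon lists, 16 of 155 annotated genes were called higher and 0 lower in the authors' DESeq test. How many passed at an unadjusted p is unknown, since the table stops at an adjusted p of 0.1. Without the 7 genes, 9 of 148 (6.08%) were called higher, against 2.56% of all gene models in the adjustment. How many of the 148 entered that adjustment is not known, so the 2 shares have different bases.

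The genes nearest in level were found by distance in log2 mean, with 1 added, over the 2 group means of each listed gene model, which is a coarse likeness. Nearest to Slfn2 were Tnip3, an inhibitor of NF-kB signalling, with means of 24.2 and 149.9, and Odf3b, with 22.6 and 138, in the authors' deposited table. Mob3c and Ramp1 lay nearest to Igtp, Ecm1 and Atxn1 to Irgm2, and Vdr and Kcnip3 to Iigp1. Abhd14b and Sertad3 lay nearest to Gbp2, Plin3 and Gpsm3 to Sp100, and Slc18a2 and Irf1 to Sp140.

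Some marker genes of other blood cells were also called higher in old. Of 40 granulocyte and monocyte markers, 18 were called, all higher in old, with a median log2 fold change of 5.61 and, in the authors' deposited table, summed means of 6045 in young and 104741 in old. No listed marker of that list was at 0 in either group. All 7 genes described above had a smaller change than that median, and their SEs, 0.19 to 0.58, lay mostly below those of the 18 markers (0.39 to 1.68, median 1.40) in the authors' deposited table. A call limits how large the SE can be at a given log2 fold change, and only called genes are compared here. Smaller changes must then come with smaller SEs, so the small SEs of the 7 genes are in part set by their calls. A call sets no lower bound on the SE of a larger change, so the large SEs of the 18 markers are not set by it. Whether the difference in SE is a trait of either set was not tested. Of 27 lymphoid and dendritic markers, 6 were called higher, and the authors' deposited table gives them summed means of 499 in young and 10947 in old. They are Cd74, 3 MHC class II genes, and Klrb1c and Cd4, whose old means were only 21.3 and 21.1 in that table. Whether Cd74 and the MHC class II genes rose through such cells or within the sorted cells themselves was not tested. Of 15 erythroid markers, 2 globin genes were called higher. The shares called higher were 45% for the granulocyte and monocyte list, 22.2% for the lymphoid and dendritic list and 13.3% for the erythroid list. Over all gene models in the adjustment it was 2.56%, and how many of these markers entered the adjustment is not known. The part of these cells in the rise of the 7 genes was not tested.

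The label of the sorted cells could be checked on few markers. Of 30 megakaryocyte and platelet genes, the authors' deposited table has only Selp as called (means of 496 and 2358) and Slamf1, the CD150 gene, as listed (79.3 and 228). The rest have no value here. The share called higher in this list was 3.33%, against 2.56% of all gene models in the adjustment.

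**Figure D5:**
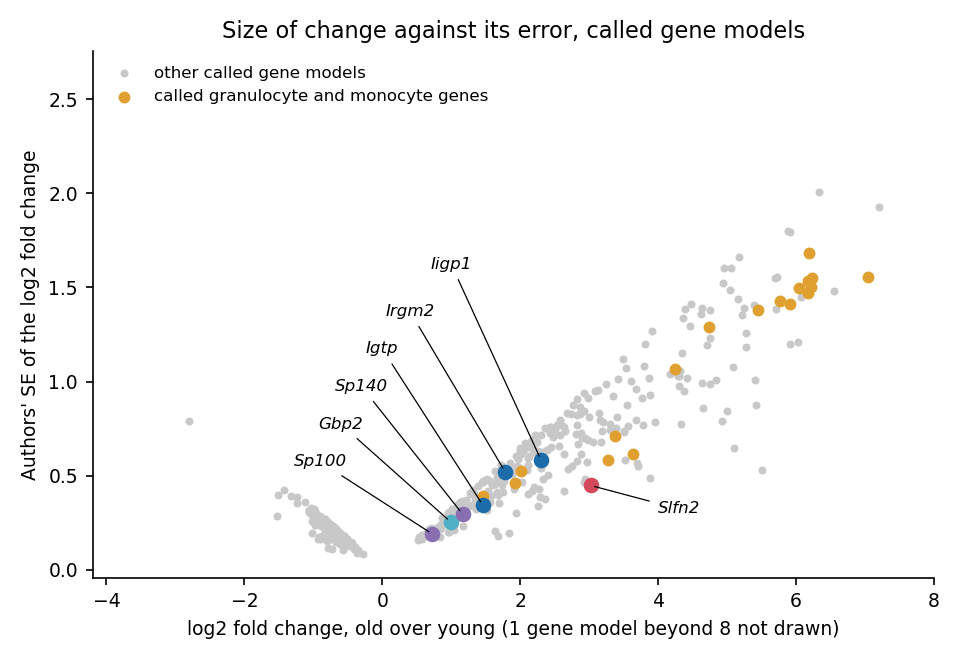
Authors' SE (y axis) against log2 fold change (x axis) for 486 called gene models, with the 7 genes labelled and 18 granulocyte and monocyte genes in orange. The upper edge of the right-hand cloud is set by the call itself, Irgm2 lies close to it, and Slfn2 lies below it at a log2 fold change of 3.02 and an SE of 0.45.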

How the data were processed

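The authors deposited 1 table of their comparison. The submitters' processing notes name Bowtie2, STAR, DESeq and the build mm10, without versions or roles. Per the file headers, the authors gave group means of normalized counts (a scaled signal), a log2 fold change, its SE, the Wald score, and raw and adjusted p-values. The log2 fold change is headed as a maximum a posteriori estimate, but it was within 0.1 of the log2 ratio of the deposited means in 98.5% of 757 gene models. The number of gene models adjusted was recovered from p and adjusted p, a step tested on simulated data. Genes and lists were chosen with earlier results of these data known. Named genes are the 7, listed family genes, at most 10 called genes of each other interferon list, the 2 nearest gene models, and listed neighbours within 5 annotated genes. No count model was fitted, because no value per library is given. Motifs and shared 50-base stretches were searched in RefSeq promoters and GENCODE M21 transcripts with Python 3.11.15 and Biopython 1.88.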

Additional observations from a re-analysis of the deposited data

Results flagged for a closer look

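The authors' deposited table also holds a mean over 14 samples, of which at most 7 belong to the young and old groups. For all 7 genes that mean was above both group means, which, with a common scaling, can only arise if the samples outside the 2 groups averaged higher still. It stood at 401 normalized counts for Slfn2, 1125 for Igtp, 344 for Iigp1, 271 for Sp140, 403 for Gbp2, 856 for Sp100 and 268 for Irgm2 in the authors' deposited table. Against the old mean the ratio was largest for Iigp1 (8.99) and smallest for Sp140 (1.26). Among all listed gene models, 314 of 769 (40.8%) had a 14-sample mean above both group means, and among the higher calls 211 of 302 (69.9%) did. Among the 18 called granulocyte and monocyte genes, 4 did. What the other samples are was not given in the sources used here.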

How the results depend on the processing

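The calls of the 7 genes at adjusted p limits of 0.01 and 0.1, with a minimum fold and after recentring numbered 5 to 7. Under Bonferroni adjustment 1 stayed called, Slfn2. Recentring by the median of the lower calls (-0.72 on the log2 scale) moved every log2 fold change by more than its SE: to 2.18 for Igtp, 2.50 for Irgm2, 3.02 for Iigp1, 1.71 for Gbp2, 3.74 for Slfn2, 1.45 for Sp100 and 1.88 for Sp140. A shift the other way would end the Sp100 call at 0.14, that of Irgm2 at 0.17 and that of Slfn2 at 1.64. A pseudocount of 10 brought Iigp1 to 1.44 and Slfn2 to 2.53, the genes with the lowest young means. Neither the plain ratio of means nor a pseudocount of 1 moved any of the 7 by its SE. Over the interferon lists, 8 genes were called at 0.01 against 16 at 0.05. With 1 mismatch allowed, 5 of 6 promoters held the ISRE core, as did 34.7% of all genes, and 5 held the GAS core, as did 69.1%. Merged exons as length were an alternative chosen after seeing the data. No paired analysis was possible because the deposited columns are group means. The planned omission of single libraries, other normalization and count filters were therefore not run, and depth sets no limit that could be computed.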
